A study of Mus musculus with 54 samples.

Results

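A set of 10 genes of the cellular response to low oxygen were followed in differentiating mouse muscle cells, of 19653 genes with an NCBI gene number found in the deposited tables. They were chosen by symbol: the factors Hif1a and Epas1, the targets Vegfa, Slc2a1, Ldha, Pdk1, Bnip3, Egln3 and Ankrd37, and the secreted peptide gene Apln. All 10 were listed in each of the 27 tables, of which 15 set a line against wildtype on the same day and 12 set a line on 1 day against the same line on the next.

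The cells were H2K myogenic progenitors, muscle precursors grown from mice, harvested at the start of differentiation (day 0) and 1 and 2 days later. Wildtype cells were compared with 5 lines that lack the mouse gene for emerin, a protein of the inner nuclear membrane whose mutation causes Emery-Dreifuss muscular dystrophy (EDMD): the EMD-/y line (emerin null in the labels), and EMD-/y cells given a lentivirus for wildtype emerin (+EMD) or for the disease-causing forms S54F, Δ95–99 (Del9599 in the labels) and Q133H. The study compared them to find which genes depend on emerin as muscle cells differentiate. Each of the 18 groups had 3 labelled samples, 54 in all, and the notes on RNA isolation give 2 biological replicates with 3 technical ones of each, without saying which of these the labelled samples are. The 4 transduced lines were selected with puromycin, at a dose that differed between lines, and kept in it, while wildtype and EMD-/y cells were not. The emerin mutant lines were also plated at a higher density than wildtype and EMD-/y, the density of +EMD being unstated. The study reported more emerin protein in Q133H cells than in wildtype, and similar levels in the other transduced lines used here. Virus, drug, density and the form and amount of emerin therefore cannot be told apart between the transduced lines and wildtype. A line carrying an empty virus was not analysed here. All lines shared the move at day 0 from a rich growth medium with γ-interferon to a medium with little horse serum, and the culture temperature was raised and the incubator CO2 lowered at that step, so that medium, temperature, gas and time cannot be told apart between day 0 and day 1.

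Cells sense oxygen through hypoxia-inducible factors, transcription factors made of an oxygen-regulated α subunit (HIF-1α from Hif1a, HIF-2α from Epas1) and a stable partner (ARNT). In ample oxygen, prolyl hydroxylases such as the Egln3 product mark the α subunit for destruction through the VHL ligase, so that the factor is set mainly by the amount of its protein and not of its RNA. When oxygen falls, the factor binds a short core sequence, A or G followed by CGTG, and raises genes for glucose uptake and glycolysis (Slc2a1, Ldha), for keeping pyruvate out of mitochondria (Pdk1), for mitochondrial clearance (Bnip3), for vessel growth (Vegfa), and its own brake (Egln3). Apln encodes apelin, a peptide of blood vessels and muscle that acts through the receptor APLNR and can itself respond to hypoxia. Many of these genes also answer to other signals, and no oxygen level, HIF protein or binding was measured here.

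The tables gave 1 normalized count per gene and group and none per sample, so no spread between replicates, standard error or test could be computed, and every difference below is a description of pooled values. Differences are log2 ratios of 2 groups of 1 table after adding 1 normalized count to each. A gene was said to rise, fall or be called only if it was at least 2-fold apart and its higher value was at least 10 normalized counts. Levels are in counts scaled to a column sum of 1000000 (CPM), the median over the tables that hold the group. As tested on the genes with a single read, the 2 values of a table are an overall mean split by a ratio drawn towards 1, by an amount that differed between tables. Folds of other low genes (Epas1, Ankrd37 and, by day 2, Apln) may be understated too, by an amount not measured at their counts. The same group's level moved between tables by at most 3.36% for 7 of the members, 6.24% for Ankrd37, 20.4% for Epas1 and 22.6% for Apln. These shares cover the splitting and scaling and not the spread between cultures.

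The normalized counts of a group summed to between 16719491 and 21128040. Mouse Emd stood at 54.8 to 105 CPM in wildtype and at most 0.125 in every other line, the transduced ones included, so this row does not see the emerin they were given. The muscle identity of the cells was checked with 8 markers, whose summed level was 1475 to 34031 CPM. Of these, Pax7 was at most 0.458 CPM in Q133H. Summed levels were at most 4.09 for 5 endothelial markers, 6.30 for 4 blood cell markers and 0.613 for 3 adipocyte markers, with Ptprc, Adgre1, Adipoq and Lum at or near 0. The 5 fibroblast markers summed to 18.1 to 268, most of it Ly6a. In bulk RNA, fewer cells of a type and less RNA per cell cannot be told apart.

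Promoter sequences are shown for a pair of targets that rose in all 6 lines on day 1 (Bnip3, Ankrd37), a target that did not reach 2-fold in any (Ldha) and Apln, which fell in 4. Each runs 5′ to 3′ on the gene's strand from 250 bases before to 50 after the start, from RefSeq on GRCm38.p6, and capitals mark ACGTG or GCGTG on either strand (CACGT or CACGC as printed), overlapping matches running together. Bnip3 lies at chr7:138909457-138909756 (minus strand), Ankrd37 at chr8:45999801-46000100 (minus), Ldha at chr7:46845554-46845853 (plus) and Apln at chrX:48034804-48035103 (minus).
Bnip3: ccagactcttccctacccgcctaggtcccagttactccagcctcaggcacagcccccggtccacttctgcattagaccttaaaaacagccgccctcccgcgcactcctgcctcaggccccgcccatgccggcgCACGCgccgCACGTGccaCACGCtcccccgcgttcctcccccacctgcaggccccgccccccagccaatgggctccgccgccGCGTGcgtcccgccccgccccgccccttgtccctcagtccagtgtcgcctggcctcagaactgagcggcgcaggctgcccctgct
Ankrd37: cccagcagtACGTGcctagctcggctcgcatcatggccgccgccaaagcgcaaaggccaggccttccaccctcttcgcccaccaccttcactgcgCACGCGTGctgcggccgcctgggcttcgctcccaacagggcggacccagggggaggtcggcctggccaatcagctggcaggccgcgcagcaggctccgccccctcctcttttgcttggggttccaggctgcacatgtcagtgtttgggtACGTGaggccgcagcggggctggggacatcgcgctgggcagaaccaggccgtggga
Ldha: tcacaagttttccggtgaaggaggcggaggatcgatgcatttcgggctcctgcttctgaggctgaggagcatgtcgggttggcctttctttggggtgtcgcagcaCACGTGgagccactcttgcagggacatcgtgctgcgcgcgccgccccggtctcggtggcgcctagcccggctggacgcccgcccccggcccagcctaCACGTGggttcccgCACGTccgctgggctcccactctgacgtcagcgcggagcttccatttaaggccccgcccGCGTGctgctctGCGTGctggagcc
Apln: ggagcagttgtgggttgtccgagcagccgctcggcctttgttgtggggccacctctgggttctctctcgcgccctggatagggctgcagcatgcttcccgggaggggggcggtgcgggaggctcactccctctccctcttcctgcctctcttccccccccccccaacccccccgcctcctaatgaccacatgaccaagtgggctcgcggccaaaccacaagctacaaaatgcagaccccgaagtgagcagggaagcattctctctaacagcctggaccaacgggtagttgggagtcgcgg

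The Bnip3 window held 4 separate matches, that of Ankrd37 3 and the Ldha window 5, while the Apln window held none. A second Ldha start had 2. Hif1a, Slc2a1 and Pdk1 each had 2 in their first window and Egln3 had 1, the first of 2 Vegfa windows had none and its second had 2, and the second Pdk1 window had none. Windows were found for 9 of the 10 members, Epas1 being the other. In all, 9 of the 12 windows held the core, against 43.8% of 32851 promoter windows of the same length, and 6.55% of all windows held at least 3 separate matches. A match is a run of letters and not a shown binding site, and the number of matches did not order the changes: Ldha, with the most, moved less than Egln3, with 1.

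Between day 0 and day 1, the targets Bnip3, Egln3 and Ankrd37 and the factor Epas1 rose in all 6 lines, and Pdk1 rose in 5. Apln moved the other way, falling in 4 lines, and Vegfa fell in 2. Counted over all 10 members, 5 rose in wildtype, EMD-/y, +EMD and S54F, 4 in Δ95–99 and 6 in Q133H. The background share of all genes that were at least 2-fold higher on day 1 was 12.5% in wildtype, 12% in EMD-/y, 10.4% in +EMD, 9.42% in S54F, 7.32% in Δ95–99 and 5.77% in Q133H. Members fell at least 2-fold on day 1 in 5 lines, 1 in wildtype, EMD-/y, S54F and Δ95–99 and 2 in +EMD, where the share of all genes at least 2-fold lower was 10.3% in wildtype, 9.42% in EMD-/y, 6.93% in +EMD, 7.19% in S54F, 6.69% in Δ95–99 and 6.37% in Q133H. The median log2 ratio of the 10 members lay between 0.66 in Δ95–99 and 1.19 in Q133H, beside a median of all genes between -0.02 and 0.00. Epas1, counted as a riser in every line, passed the filter only through its day 1 value, having at most 9.01 normalized counts on day 0. Without it, 3 to 5 of the other 9 rose. The 6 lines share no sample in these comparisons, but the 4 transduced lines were all made from EMD-/y cells.

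From day 1 to day 2 the median log2 ratio of the members ran from -0.82 in wildtype to -0.02 in Δ95–99. Apln fell in all 6 lines, as it had in 4 over the first day. Epas1 fell in wildtype and EMD-/y and rose in +EMD, and no other member was at least 2-fold apart. So 2 of the 10 members fell in wildtype and EMD-/y and 1 in each other line, beside shares of all genes at least 2-fold lower of 11.9% in wildtype, 11% in EMD-/y, 9.53% in +EMD, 11.1% in S54F, 5.24% in Δ95–99 and 4.44% in Q133H. The 1 member that rose, in +EMD, stands beside shares of all genes at least 2-fold higher of 8.01% in wildtype, 7.61% in EMD-/y, 11% in +EMD, 9.39% in S54F, 8.95% in Δ95–99 and 6.33% in Q133H. The day 1 groups enter both sets of comparisons, so a high day 1 value raises the first ratio and lowers the second. Column totals grew into day 2, so that scaling each column to its sum moved the median of all genes by up to -0.27 (in S54F) and brought the members that fell between days from 14 to 21 over both transitions, with 31 higher under either scaling.

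**Figure D1:**
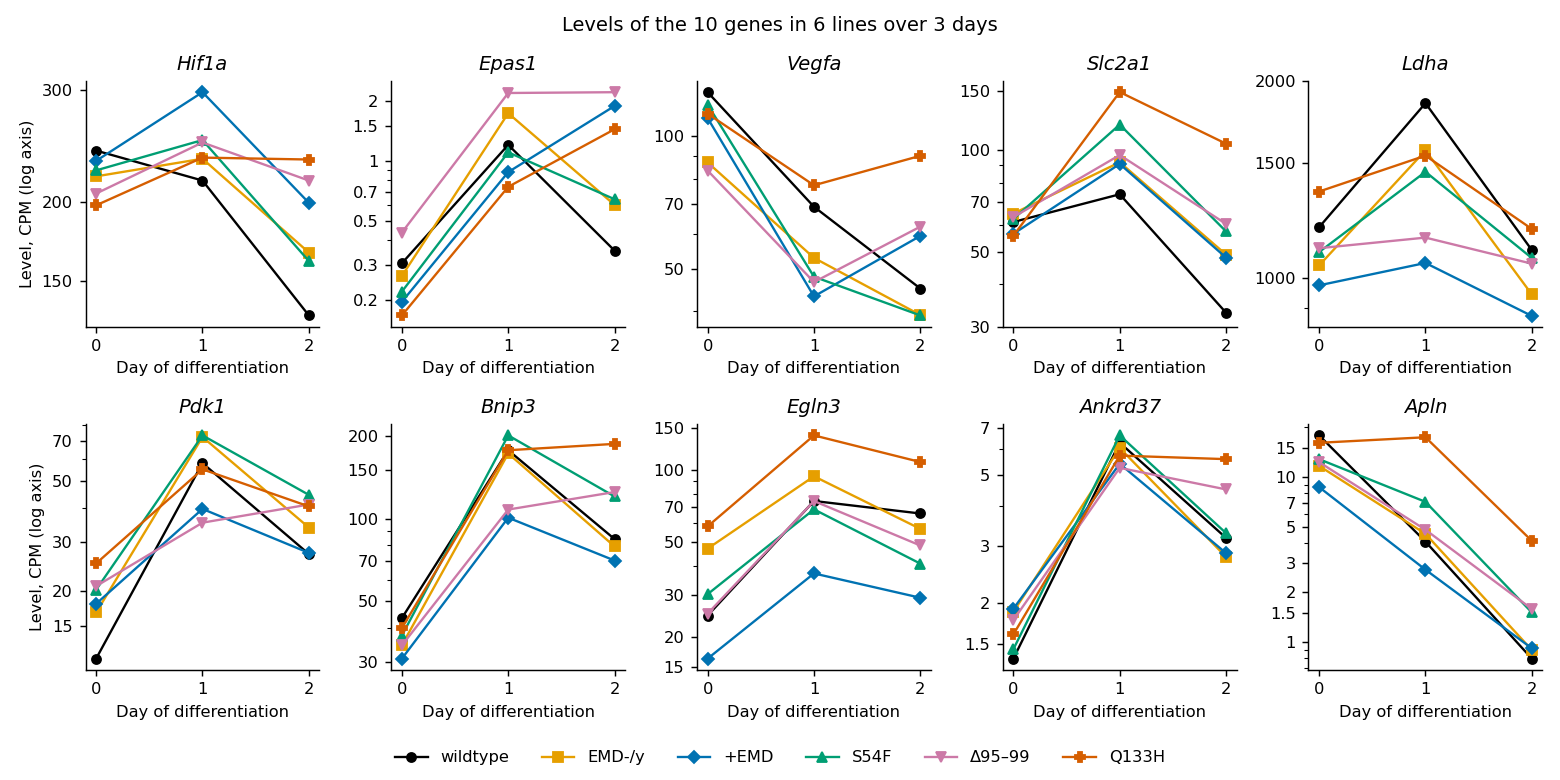
Level of each of the 10 genes, in CPM on a log axis, on days 0, 1 and 2 of differentiation in the 6 lines. Each point is the median over the tables that hold the group, with no replicate error available. Bnip3 runs from 31.0 to 201 CPM and Apln from 17.9 down to 0.795.

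**Figure D2:**
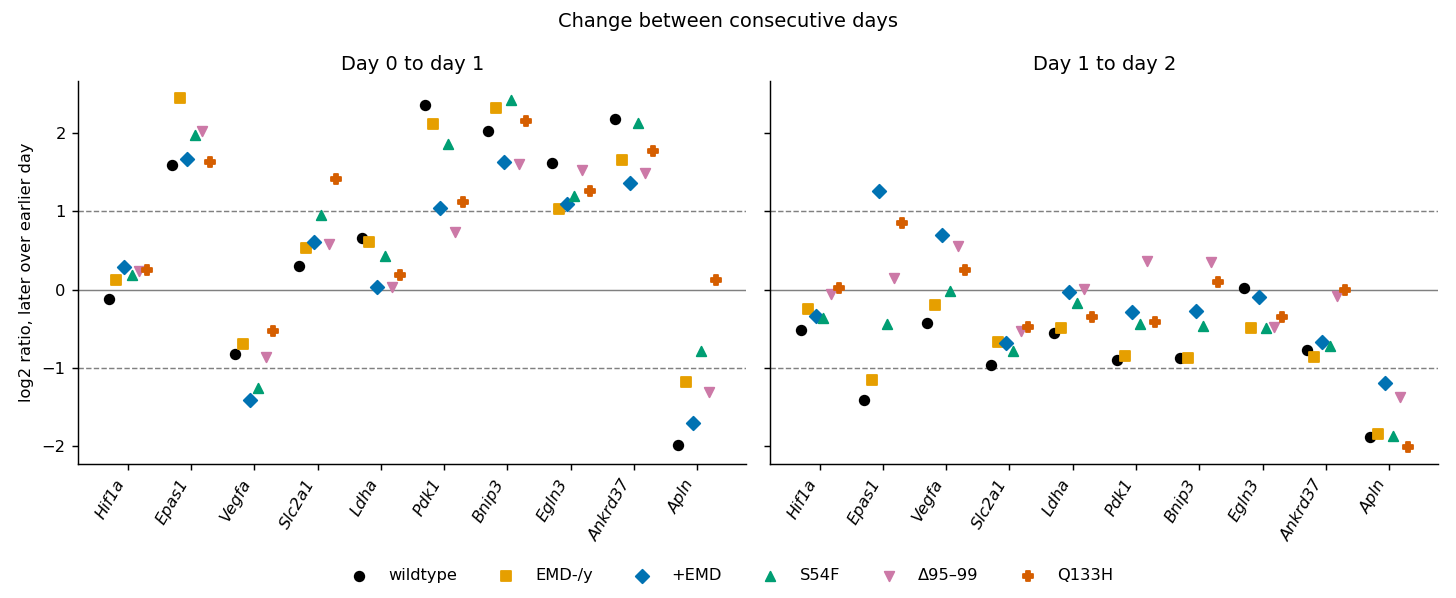
Log2 ratio of the later over the earlier day for each gene, day 0 to day 1 on the left and day 1 to day 2 on the right, with 1 point per line and dashed lines at 2-fold. Egln3, Bnip3, Ankrd37 and Epas1 lie above the upper line in all 6 lines on the left, and Apln lies below the lower line in all 6 on the right.

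Among the factors, RNA of Hif1a (NCBI gene 15251, chr12:73901324-73947554) did not reach 2-fold in any comparison, positions here and below being those of GRCm38. It was abundant, at 132.5 to 297 CPM, with a highest to lowest ratio of 2.24 over the 18 groups. The level of Hif1a was 241, 216 and 132.5 CPM on days 0, 1 and 2 in wildtype, and 219, 234 and 166 in EMD-/y. For +EMD cells Hif1a gave 232, 297 and 199, and for S54F 224, 250.03 and 161. Δ95–99 held 206, 248 and 216 and Q133H 197, 235 and 233 CPM. The lowest level was that of wildtype on day 2 and the highest that of +EMD on day 1. The log2 ratio from day 0 to day 1 was -0.12 in wildtype, 0.12 in EMD-/y, 0.29 in +EMD, 0.18 in S54F, 0.24 in Δ95–99 and 0.25 in Q133H, and from day 1 to day 2 -0.51 in wildtype, -0.25 in EMD-/y, -0.33 in +EMD, -0.36 in S54F, -0.05 in Δ95–99 and 0.02 in Q133H. The last of these was just under 0 instead when columns were scaled to their sums. Against wildtype, Hif1a was 0.32 to 0.56 higher on the log2 scale on day 2 in the 5 lines.

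Epas1 (NCBI gene 13819, chr17:86753864-86833410), the gene for HIF-2α, was a low transcript that varied widely. Its levels ran from 0.167 to 2.21 CPM, a ratio of 13.2, and in wildtype on day 0 it had 1.22 normalized counts per kilobase of transcript against 930 for Hif1a. The level of Epas1 was 0.305, 1.20 and 0.353 CPM on days 0, 1 and 2 in wildtype, and 0.264, 1.73 and 0.600 in EMD-/y. For +EMD cells Epas1 gave 0.195, 0.877 and 1.88, and for S54F 0.220, 1.10 and 0.640. Δ95–99 held 0.436, 2.19 and 2.21 and Q133H 0.167, 0.739 and 1.44 CPM. Day 0 was the lowest day in every line. Epas1 rose from 6.51 to 21.6 normalized counts in wildtype and from 5.10 to 32.1 in EMD-/y over the first day, and the log2 ratio was 1.59 in wildtype, 2.44 in EMD-/y, 1.67 in +EMD, 1.97 in S54F, 2.03 in Δ95–99 and 1.63 in Q133H. What followed split the lines: on day 2 it fell again in wildtype (-1.41) and EMD-/y (-1.15), the latter short of 2-fold with a pseudocount of 5 (-0.96). It rose further in +EMD (1.25), and was 0.85 in Q133H, 0.15 in Δ95–99 and -0.44 in S54F. By day 2 Epas1 was 4.89-fold higher than wildtype in Δ95–99, 4.53-fold in +EMD and 3.22-fold in Q133H, with 38.6, 34.3 and 24.9 normalized counts beside 7.11, 6.80 and 7.06 in wildtype in the same tables. On day 0 it did not pass the filter against wildtype in any line.

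Egln3 (NCBI gene 112407, chr12:54178981-54203874), which encodes the hydroxylase PHD3 and is known as one of the most responsive HIF targets, was highest on day 1 in all 6 lines. The level of Egln3 was 24.7, 74.5 and 66.0 CPM on days 0, 1 and 2 in wildtype, and 47.1, 94.5 and 56.9 in EMD-/y. For +EMD cells Egln3 gave 16.3, 37.1 and 29.3, and for S54F 30.3, 68.7 and 40.7. Δ95–99 held 25.2, 74.5 and 48.5 and Q133H 58.3, 140.2 and 108 CPM. Q133H was the highest line and +EMD the lowest on each day. The log2 ratio from day 0 to day 1 was 1.62 in wildtype, 1.03 in EMD-/y, 1.09 in +EMD, 1.20 in S54F, 1.53 in Δ95–99 and 1.26 in Q133H, EMD-/y being the nearest to the 2-fold line at 2.04-fold. On day 2 it was 0.02 in wildtype, -0.49 in EMD-/y, -0.10 in +EMD, -0.48 in S54F, -0.47 in Δ95–99 and -0.34 in Q133H, none of them 2-fold, and the wildtype value was lower instead (-0.17) when columns were scaled to their sums. Against wildtype, Egln3 was 2.27-fold higher in Q133H on day 0 (1.18 on the log2 scale), 0.81 on day 1 and 0.45 on day 2. In +EMD it stood at -0.58 on day 0, -1.08 on day 1 and -1.20 on day 2, the last 2 past 2-fold, although the day 1 value was just short of it under scaling to the column sums.

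Bnip3 (NCBI gene 12176, chr7:138890836-138909506), a receptor for the removal of mitochondria, gave the largest rise of the 7 targets in every line but wildtype. The level of Bnip3 was 43.5, 177 and 84.3 CPM on days 0, 1 and 2 in wildtype, and 34.7, 173 and 79.2 in EMD-/y. For +EMD cells Bnip3 gave 31.0, 101 and 70.4, and for S54F 37.6, 201 and 120.5. Δ95–99 held 34.6, 108 and 125 and Q133H 40.0, 178 and 187 CPM. On day 0 the lines lay within 31.0 to 43.5 CPM, and on day 1 within 101 to 201. The log2 ratio from day 0 to day 1 was 2.02 in wildtype, 2.32 in EMD-/y, 1.62 in +EMD, 2.42 in S54F, 1.61 in Δ95–99 and 2.15 in Q133H. Between 0.945% and 4.93% of all genes of a line had a ratio as high. From day 1 to day 2 it was -0.88 in wildtype, -0.88 in EMD-/y, -0.27 in +EMD, -0.46 in S54F, 0.36 in Δ95–99 and 0.10 in Q133H. Wildtype and EMD-/y thus came down most, and past 2-fold when columns were scaled to their sums (-1.07 and -1.11), while Δ95–99 and Q133H stayed at or above their day 1 level. On day 2 Bnip3 was 1.84-fold higher in Q133H than in wildtype, and past 2-fold (1.13 on the log2 scale) with the other scaling.

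Ankrd37 (NCBI gene 654824, chr8:45996908-46000414), a small ankyrin-repeat gene known chiefly as a HIF-1 target, followed Bnip3 at a far lower level. The level of Ankrd37 was 1.35, 6.29 and 3.19 CPM on days 0, 1 and 2 in wildtype, and 1.88, 6.06 and 2.78 in EMD-/y. For +EMD cells Ankrd37 gave 1.92, 5.41 and 2.86, and for S54F 1.44, 6.63 and 3.30. Δ95–99 held 1.77, 5.26 and 4.51 and Q133H 1.60, 5.74 and 5.59 CPM. Every line was lowest on day 0 and highest on day 1. The log2 ratio from day 0 to day 1 was 2.18 in wildtype, 1.66 in EMD-/y, 1.37 in +EMD, 2.13 in S54F, 1.48 in Δ95–99 and 1.77 in Q133H, and in wildtype this was a step from 24.7 to 115 normalized counts. It was -0.77 in wildtype, -0.86 in EMD-/y, -0.66 in +EMD, -0.72 in S54F, -0.08 in Δ95–99 and -0.01 in Q133H on day 2, of which the EMD-/y value passed 2-fold (-1.09) under scaling to the column sums. Against wildtype Ankrd37 stayed within -0.38 and 0.54 in all 15 comparisons.

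Pdk1 (NCBI gene 228026, chr2:71873215-71903858), the kinase that shuts the entry of pyruvate into the mitochondrial cycle, rose most in wildtype. The level of Pdk1 was 11.4, 58.1 and 27.2 CPM on days 0, 1 and 2 in wildtype, and 16.7, 72.3 and 34.0 in EMD-/y. In the +EMD line it was 17.99, 39.7 and 27.5, and in S54F 20.2, 73.2 and 44.6. Δ95–99 held 20.8, 35.4 and 41.2 and Q133H 25.2, 55.2 and 40.5 CPM. Wildtype started lowest on day 0 and Q133H highest. The log2 ratio from day 0 to day 1 was 2.36 in wildtype, 2.11 in EMD-/y, 1.05 in +EMD, 1.86 in S54F, 0.73 in Δ95–99 and 1.12 in Q133H, so that +EMD and Q133H passed 2-fold narrowly and Δ95–99 did not. Set against the wildtype change, the change of Pdk1 was smaller by at least 2-fold in Δ95–99 (a difference of -1.63), +EMD (-1.31) and Q133H (-1.24). On day 2 the ratio was -0.90 in wildtype, -0.84 in EMD-/y, -0.28 in +EMD, -0.44 in S54F, 0.36 in Δ95–99 and -0.42 in Q133H, and the wildtype and EMD-/y values passed 2-fold (-1.09 and -1.08) under scaling to the column sums. Before differentiation all 5 lines were above wildtype, by 0.55 in EMD-/y, 0.66 in +EMD, 0.78 in S54F, 0.83 in Δ95–99 and 1.09 in Q133H, the last of them past 2-fold.

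Slc2a1 (NCBI gene 20525, chr4:119108745-119137330), which encodes the glucose transporter GLUT1, was highest on day 1 in all 6 lines and separated Q133H from the rest. The level of Slc2a1 was 61.2, 73.9 and 33.0 CPM on days 0, 1 and 2 in wildtype, and 64.8, 92.0 and 49.0 in EMD-/y. In the +EMD line it was 56.5, 90.9 and 48.0, and in S54F 62.5, 119 and 57.4. Δ95–99 held 63.3, 96.6 and 60.4 and Q133H 55.7, 148 and 104 CPM. On day 0 the lines were within 55.7 to 64.8 CPM, with Q133H lowest. A day later Q133H was the highest, and its log2 ratio was the only one past 2-fold: the ratios were 0.30 in wildtype, 0.53 in EMD-/y, 0.61 in +EMD, 0.95 in S54F, 0.58 in Δ95–99 and 1.41 in Q133H. From day 1 to day 2 Slc2a1 was -0.96 in wildtype, -0.67 in EMD-/y, -0.68 in +EMD, -0.78 in S54F, -0.53 in Δ95–99 and -0.48 in Q133H, and under scaling to the column sums it fell at least 2-fold in wildtype (-1.15) and S54F (-1.05). Against wildtype the log2 ratio was 0.32 in EMD-/y, 0.22 in +EMD, 0.63 in S54F, 0.25 in Δ95–99 and 0.90 in Q133H on day 1, and 0.62 in EMD-/y, 0.50 in +EMD, 0.83 in S54F, 0.69 in Δ95–99 and 1.40 in Q133H on day 2. The last, 2.64-fold, was past the limit, and the Q133H value on day 1 was so only under scaling to the column sums (1.00).

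Ldha (NCBI gene 16828, chr7:46842274-46855627), the subunit of lactate dehydrogenase that favours lactate, was the most abundant member, with 12964 normalized counts per kilobase in wildtype on day 0 against 39.9 for Pdk1, and the steadiest, with a highest to lowest ratio of 2.11. The level of Ldha was 1196, 1850.0 and 1103 CPM on days 0, 1 and 2 in wildtype, and 1045, 1567 and 944 in EMD-/y. In the +EMD line it was 975, 1054 and 875, and in S54F 1096, 1453 and 1073. Δ95–99 held 1111, 1153 and 1052 and Q133H 1356, 1538 and 1188 CPM. It was highest on day 1 and lowest on day 2 in every line. The log2 ratio from day 0 to day 1 was 0.66 in wildtype, 0.61 in EMD-/y, 0.04 in +EMD, 0.43 in S54F, 0.03 in Δ95–99 and 0.18 in Q133H, so wildtype, EMD-/y and S54F stood apart from +EMD and Δ95–99, which were near 0. Against wildtype, Ldha was -0.23 in EMD-/y, -0.89 in +EMD, -0.38 in S54F, -0.82 in Δ95–99 and -0.38 in Q133H on day 1. No value reached 2-fold on any day, and the sign in Q133H on day 2 (-0.15) turned under scaling to the column sums (0.10), as did that of Δ95–99 from day 1 to day 2. RefSeq lists pseudogenes of Ldha, with which reads could be shared, so its values carry that uncertainty.

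Vegfa (NCBI gene 22339, chr17:46016993-46032377), the vessel growth factor and a textbook HIF target, did not go with the other targets. The level of Vegfa was 126, 69.1 and 45.0 CPM on days 0, 1 and 2 in wildtype, and 87.1, 52.9 and 39.2 in EMD-/y. For +EMD cells Vegfa gave 109.9, 43.2 and 59.3, and for S54F 118, 47.9 and 39.1. Δ95–99 held 83.5, 46.6 and 62.3 and Q133H 112, 77.3 and 90.2 CPM. It was highest on day 0 in all 6 lines. From day 0 to day 1 the log2 ratio was -0.82 in wildtype, -0.69 in EMD-/y, -1.41 in +EMD, -1.26 in S54F, -0.86 in Δ95–99 and -0.53 in Q133H, so it fell in +EMD and S54F. It then was higher on day 2 in +EMD (0.70), Δ95–99 (0.56) and Q133H (0.25), short of 2-fold, against -0.43 in wildtype. The change of +EMD on day 2 exceeded that of wildtype by 1.13. Against wildtype Vegfa stayed within -0.76 and 0.74 over the 15 comparisons.

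Apln (NCBI gene 30878, chrX:48025146-48034853) had the widest range of the 10 genes, 22.5-fold from its lowest to its highest level. The level of Apln was 17.9, 4.07 and 0.795 CPM on days 0, 1 and 2 in wildtype, and 11.7, 4.53 and 0.896 in EMD-/y. Given wildtype emerin (+EMD) the values were 8.70, 2.75 and 0.918, and with S54F 12.8, 7.08 and 1.51. Δ95–99 held 12.3, 4.80 and 1.59 and Q133H 16.1, 17.4 and 4.11 CPM. All lines began between 8.70 and 17.9 CPM and ended at or under 4.11. The log2 ratio over the first day was -1.98 in wildtype, -1.18 in EMD-/y, -1.70 in +EMD, -0.78 in S54F, -1.31 in Δ95–99 and 0.13 in Q133H: 4 lines fell, S54F was short of 2-fold, and Q133H was not apart from its day 0 value. On the second day all 6 fell, with -1.88 in wildtype, -1.84 in EMD-/y, -1.20 in +EMD, -1.87 in S54F, -1.37 in Δ95–99 and -2.01 in Q133H, and in Q133H this was a step from 333 to 82.1 normalized counts. Of all genes of a line, 0.648% to 5.99% had a ratio as low on that day. Q133H was thus 3.88-fold above wildtype on day 1 and 4.002-fold on day 2, and -0.19 on the log2 scale on day 0. The only other value past 2-fold was that of +EMD on day 0 (-1.01), which a pseudocount of 5 brought to -0.99. S54F stood at 0.73 and 0.85 on days 1 and 2.

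Set against wildtype on the same day, few members were called. EMD-/y and S54F had none on any day. On day 0, 9 members passed the filter, of which 1 was apart in +EMD (Apln) and 2 in Q133H (Pdk1, Egln3), beside shares of all genes at least 2-fold apart of 8.77% in EMD-/y, 17% in +EMD, 11.9% in S54F, 12.4% in Δ95–99 and 14.8% in Q133H. On day 1, 1 of 10 was apart in +EMD (Egln3) and 1 in Q133H (Apln), and the shares of all genes were 7.42% in EMD-/y, 19.6% in +EMD, 12% in S54F, 20.9% in Δ95–99 and 24.1% in Q133H. Day 2 held 2 in +EMD (Epas1, Egln3), 1 in Δ95–99 (Epas1) and 3 in Q133H (Epas1, Slc2a1, Apln), against 7.63% in EMD-/y, 18.4% in +EMD, 10.6% in S54F, 22% in Δ95–99 and 33.5% in Q133H. Epas1 passed the filter on day 2 only through the line's own value, wildtype having at most 7.11 normalized counts. Without Epas1, the day 2 calls left were Egln3 in +EMD and Slc2a1 and Apln in Q133H. The 3 of 10 in Q133H on day 2 are close to its background. With only 9 or 10 members, a count of 0 is not read as a difference from the share beside it. Over the 150 values, 8 were at least 2-fold higher than wildtype, 3 of them Epas1 on day 2, and 3 were lower. Under scaling to the column sums these counts were 10 and 2. Every line was set against the same wildtype samples, so these comparisons are not independent.

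**Figure D3:**
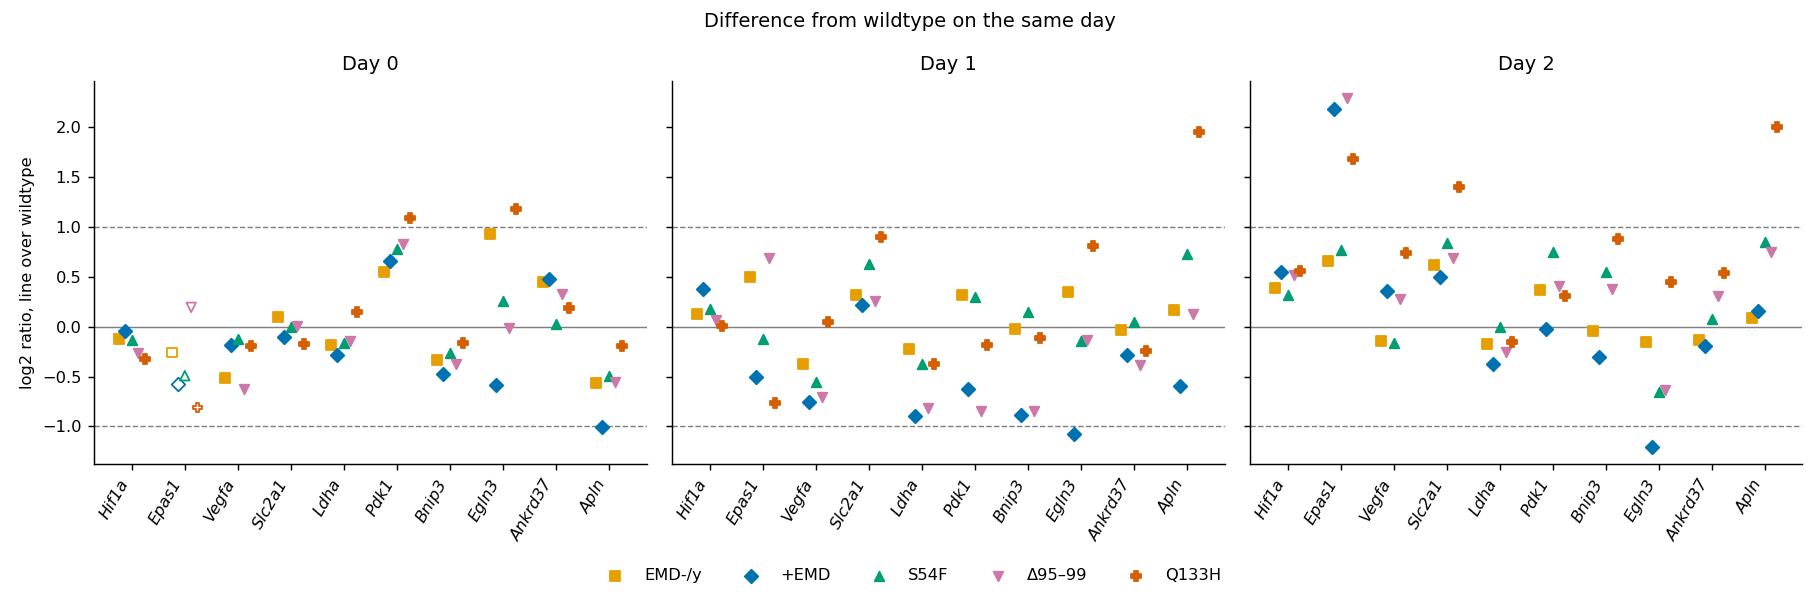
Log2 ratio of each line over wildtype for the 10 genes on days 0, 1 and 2, with 1 point per line, dashed lines at 2-fold and open symbols where the higher value was under 10 normalized counts (Epas1 on day 0). Past the upper line lie Pdk1 and Egln3 in Q133H on day 0, Apln in Q133H on days 1 and 2, Slc2a1 in Q133H on day 2, and Epas1 in +EMD, Δ95–99 and Q133H on day 2.

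On day 2 the median of the 10 members was 0.65 in Q133H, 0.44 in S54F, 0.40 in Δ95–99, 0.06 in +EMD and 0.02 in EMD-/y. Muscle and cell division markers differed between the lines as well. Summed muscle markers on day 2 were 34031 CPM in wildtype, 32803 in EMD-/y, 22826 in +EMD, 28294 in S54F, 17565 in Δ95–99 and 7172 in Q133H. Summed markers of dividing cells (Mki67, Top2a, Ccnb1 and Cdk1) were 26.6, 71.1, 403, 70.7, 424 and 262 CPM in the same order. Myog, which marks commitment to muscle, was 175 CPM in Q133H on day 1 against 1990.3 in wildtype, and 588 in Δ95–99. On day 2 Myog was 1191 CPM in Q133H, 2317 in Δ95–99, 2464 in +EMD and 2562 in wildtype. Most of each day 2 muscle sum was Myh3 and Acta1, and not every marker followed the sum. Myod1 on day 2 was 1069 CPM in wildtype, 938 in EMD-/y, 1220 in +EMD, 935 in S54F, 1267 in Δ95–99 and 831 in Q133H. The part of these differences in the levels of the hypoxia genes was not tested.

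The change of a line between days was also set against that of wildtype, as a difference of log2 ratios. From day 0 to day 1 a difference of at least 1 was found for Apln in Q133H (2.10) and S54F (1.20), for Slc2a1 in Q133H (1.11), and for Pdk1 in 3 lines as given above. From day 1 to day 2 Epas1 differed by 2.66 in +EMD, 2.26 in Q133H and 1.56 in Δ95–99, and Vegfa in +EMD as given above. Bnip3 and Pdk1 differed by 1.23 and 1.26 in Δ95–99. EMD-/y had no such difference in either step. The share of all genes with such a difference was not computed, so these values are not read as particular to the members. The same differences taken from the tables against wildtype, a second route to the same quantity, were within 0.189 of these, with a median gap of 0.0154 over 100 values, and none changed its side of 2-fold. Both routes use the same groups, so their closeness covers the splitting and scaling and not the spread between cultures.

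The wider set of hypoxia targets, 50 genes chosen with earlier results of these data known, was read in the same way. From day 0 to day 1, 18 of the 47 that passed the filter rose and 3 fell in wildtype, 18 and 4 of 48 in EMD-/y, 11 and 7 of 46 in +EMD, 13 and 6 of 47 in S54F, 13 and 7 of 47 in Δ95–99 and 13 and 4 of 46 in Q133H. Their median log2 ratios were 0.73, 0.73, 0.36, 0.71, 0.40 and 0.62 in that order, with the medians of all genes within 0.02 of 0. Of all genes, 12.5% in wildtype, 12% in EMD-/y, 10.4% in +EMD, 9.42% in S54F, 7.32% in Δ95–99 and 5.77% in Q133H were at least 2-fold higher on day 1, and 10.3% in wildtype, 9.42% in EMD-/y, 6.93% in +EMD, 7.19% in S54F, 6.69% in Δ95–99 and 6.37% in Q133H at least 2-fold lower. In wildtype the largest were Ak4, a mitochondrial adenylate kinase (2.71), Slc16a3, the lactate exporter MCT4 (2.46), Plod2, a collagen lysyl hydroxylase (2.31), and Ddit4, an inhibitor of mTOR signalling (2.16). Edn1 and Slc2a3 went the other way in wildtype, at -1.75 and -1.50.

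From day 1 to day 2, 0 of these targets rose and 17 of 47 fell in wildtype, 1 and 12 of 48 in EMD-/y, 3 and 2 of 46 in +EMD, 3 and 8 of 46 in S54F, 4 and 0 of 47 in Δ95–99 and 2 and 2 of 48 in Q133H. The medians were -0.63, -0.47, -0.22, -0.24, -0.15 and -0.02. Of all genes, 8.01% in wildtype, 7.61% in EMD-/y, 11% in +EMD, 9.39% in S54F, 8.95% in Δ95–99 and 6.33% in Q133H were at least 2-fold higher on day 2, and 11.9% in wildtype, 11% in EMD-/y, 9.53% in +EMD, 11.1% in S54F, 5.24% in Δ95–99 and 4.44% in Q133H at least 2-fold lower. Among the largest in wildtype were Angptl4, a secreted inhibitor of lipoprotein lipase (-3.34), Ak4 (-2.01) and Ddit4 (-1.93). Wildtype and EMD-/y, the lines with the highest summed muscle markers on day 2, had the lowest medians, and the part of muscle RNA in that was not tested.

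**Figure D4:**
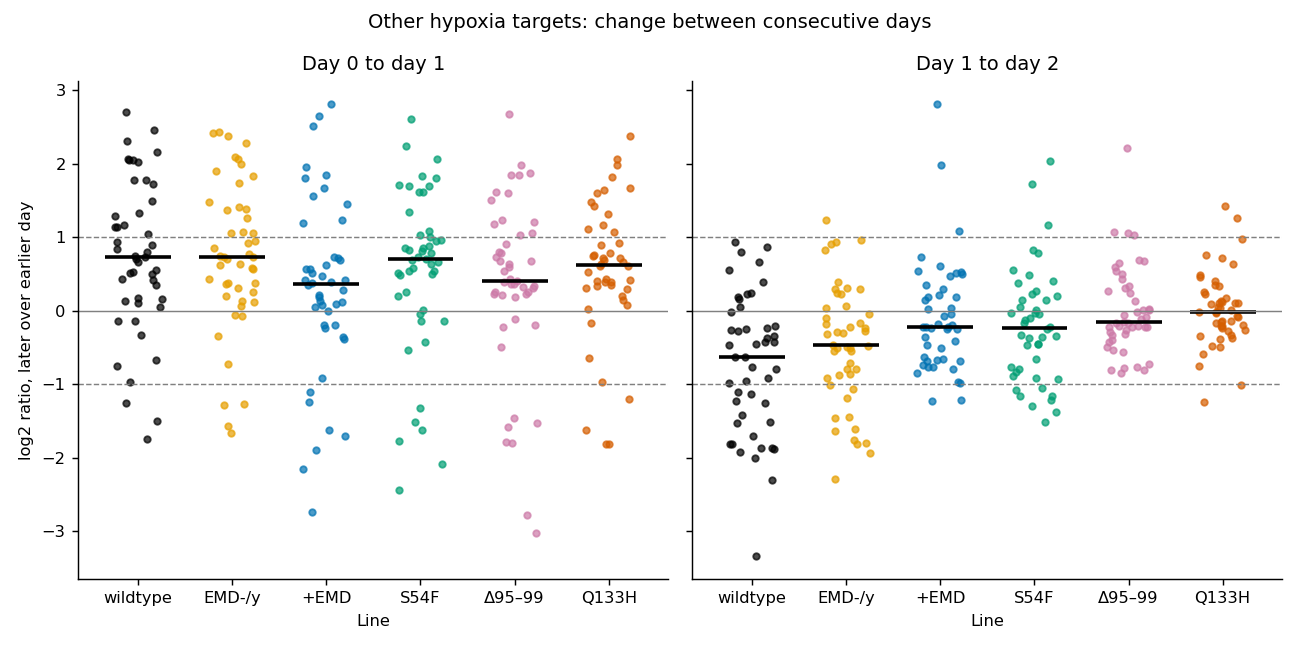
Log2 ratio of the later over the earlier day for the other hypoxia targets that passed the filter, in each of the 6 lines, for both steps. Each point is 1 gene, the thick bar is the list's median and dashed lines mark 2-fold. The medians run from 0.36 to 0.73 on the left and from -0.63 to -0.02 on the right.

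Against wildtype, the targets stood furthest off in Q133H on day 2, where 18 of 47 were higher and 4 lower with a median of 0.66, beside the 33.5% of all genes that were apart in that comparison. The largest were Angptl4 (5.32, from 32.6 to 1337 normalized counts), Car12, a carbonic anhydrase (3.35), Ak4 (2.64) and Stc2, a stanniocalcin, on the low side (-2.64). A day earlier the same line had 5 higher and 5 lower of 47, with a median of -0.08, beside 24.1% of all genes apart. In +EMD on day 1 the count went the other way, 1 higher and 12 lower of 47 with a median of -0.59, beside 19.6% of all genes apart, led by Adm, the vasodilator adrenomedullin (-3.13), the nuclear receptor Rora (-2.63), Stc2 (-2.47) and the endothelin gene Edn1 (-2.29). Δ95–99 had 1 higher and 9 lower of 48 on day 1 and 10 and 4 of 47 on day 2, beside 20.9% and 22% of all genes apart. Angptl4 was higher than wildtype on day 2 in +EMD (4.04), S54F (2.99) and Δ95–99 (4.58) as well. Gapdh was at least 2-fold above wildtype in all 5 lines on days 0 and 2, but RefSeq lists pseudogenes of it that could share its reads, so its values are uncertain.

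Of 12 genes that set or restrain the factors, 11 or 12 passed the filter. From day 0 to day 1, 1 rose and 3 of 12 fell in EMD-/y, beside 12% of all genes higher and 9.42% lower. In each other comparison between days at most 1 rose and at most 1 fell, where 5.77% to 12.5% of all genes were higher and 4.44% to 11.9% lower. Against wildtype 0 to 3 were apart, the 3 being in Δ95–99 on day 2, where 22% of all genes were apart. Cited2, which competes with HIF for its coactivator, fell from day 0 to day 1 in wildtype (-2.09), EMD-/y (-1.78), +EMD (-1.02), S54F (-1.01) and Δ95–99, and stood at -0.54 in Q133H. On day 2 it was above wildtype in +EMD (1.38), Δ95–99 (1.23) and Q133H (1.01). Hif1an, the asparaginyl hydroxylase that keeps HIF from its coactivator, rose over both days in wildtype (1.20 and 1.27) and EMD-/y (1.13 and 1.21). It was lower than in wildtype in Q133H on days 1 and 2 (-1.01 and -1.75) and in Δ95–99 on day 2 (-1.11). Arnt2, a second partner subunit, was above wildtype in +EMD on all 3 days, by 1.10, 1.74 and 2.70. Arnt itself stayed within -0.67 and 0.41 in all 27 comparisons, and Egln1 and Vhl did not reach 2-fold in any.

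The 9 relatives of the members in the same gene families passed the filter in every comparison. Slc2a3, Pdk3 and Bnip3l among them also belong to the wider set of hypoxia targets, and Egln1 and Egln2 to the genes that set or restrain the factors. From day 0 to day 1, 1 rose in each line, 2 fell in Q133H and 1 fell in each other line, beside shares of all genes of 5.77% to 12.5% higher and 6.37% to 10.3% lower. Over the next day 1 or 2 rose in each line, 2 fell in wildtype, 1 in Q133H and 0 elsewhere, beside 6.33% to 11% of all genes higher and 4.44% to 11.9% lower. Against wildtype 1 to 5 were apart, the 5 being in Q133H on day 2, where 33.5% of all genes were apart. Ldhb, the lactate dehydrogenase subunit that favours pyruvate, rose from day 0 to day 1 in all 6 lines, from 1.28 in Q133H to 3.02 in +EMD, where Ldha did not. It was also above wildtype on all 3 days in 4 of the lines, for example by 3.09, 1.84 and 2.96 in Q133H. Slc2a3, a neuronal-type glucose transporter, fell from day 0 to day 1 in all 6 lines while Slc2a1 was higher in each. Slc2a4, the insulin-responsive transporter GLUT4 of muscle and fat, rose on day 2 in wildtype (2.40), EMD-/y (2.36) and S54F (3.27). In Q133H it was -4.75 against wildtype on day 2, and in Δ95–99 -3.22. Pdk2, another pyruvate dehydrogenase kinase, rose on day 2 in all 6 lines, from 1.24 to 1.56.

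Of 9 VEGF relatives and receptors, 6 to 8 passed the filter. From day 1 to day 2, 4 of 6 fell in wildtype and 4 of 7 in EMD-/y, among them the co-receptor Nrp1 (-1.48 and -1.31) and the placental growth factor gene Pgf (-1.43 and -1.15). In +EMD 2 of 6 fell and in S54F 1 of 6, Nrp1 among them (-1.27 and -1.29), and 0 of 7 fell in Δ95–99 and in Q133H. The shares of all genes that were lower in this step were 11.9% in wildtype, 11% in EMD-/y, 9.53% in +EMD, 11.1% in S54F, 5.24% in Δ95–99 and 4.44% in Q133H. On day 2, 4 of 7 were above wildtype in Q133H, beside 33.5% of all genes apart, with Nrp1 at 1.59 and the receptor Kdr at 1.17. Kdr was low, with 19.5 normalized counts in Q133H beside 8.1 in wildtype, and passed the filter there only through the Q133H value. Vegfd was above wildtype in all 5 lines on day 2, from 1.12 in +EMD to 1.78 in S54F, after having been below it in all 5 on day 0.

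For apelin, the receptor side was all but missing: Aplnr and the second ligand gene Apela had at most 0.381 normalized counts in the tables that list them. Of the 14 genes of the apelin axis 10 or 11 passed the filter between days. From day 0 to day 1, 2 or 3 rose and 0 fell in each line, and from day 1 to day 2, 1 or 2 rose in each line and 1 fell, in wildtype, beside 5.77% to 12.5% of all genes higher and 4.44% to 11.9% lower. Prkaa2, a catalytic subunit of the energy sensor AMPK, rose in all 6 lines in both steps, by 2.91 and 1.43 in wildtype and 1.22 and 1.41 in Q133H. Ppargc1a, a coactivator of mitochondrial genes, rose in all 6 over the first day, from 1.84 in S54F to 2.85 in Δ95–99. Mme, the peptidase neprilysin, had 30.9 normalized counts in wildtype and 0.917 in +EMD on day 0, and was below wildtype in +EMD on all 3 days (-4.06, -5.23 and -5.03) and in Δ95–99 (-1.89, -2.93 and -2.17).

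Across the 18 groups the members fell into patterns that are given as a description, since the groups share lines, days and scaling. Pearson's r of log2 levels was 0.94 between Bnip3 and Ankrd37, 0.91 between Pdk1 and Bnip3 and 0.91 between Pdk1 and Ankrd37. Vegfa and Apln went together (0.76), and Vegfa went against Bnip3 (-0.57). Hif1a had r of 0.12 with Bnip3, 0.11 with Pdk1 and 0.74 with Slc2a1. Among all genes with at least 5 CPM in some group, those most like Apln were Chst1 (r = 0.98), Asap1 (r = 0.96) and G3bp2 (r = 0.96). Those most like Epas1 were Galk2 (r = 0.95), Atp6v1a (r = 0.92) and Ppp1r10 (r = 0.91), and those most like Egln3 were Cyp4f17 (r = 0.93), Dpcd (r = 0.90) and Glrx3 (r = 0.89), the 3 members with the widest ranges.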

How the data were processed

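RNA of 54 samples in 18 groups was sequenced by the study as poly-A libraries on a BGI platform. Per the study's methods and the labels, the authors filtered reads with SOAPnuke, aligned them to mm10 with HISAT2 and compared groups with DESeq2. The read counter and all versions are not given in the sources used here. Each of the 27 deposited tables holds, as its signal, 1 normalized count per gene for each of 2 groups, and 0 columns per sample. In the values deposited by the authors, genes with 1 read gave 6 steps in every table, and all 563 testable pairs of steps added up within 3e-06, so the mean of both columns is the mean over 6 libraries, split by a ratio drawn towards 1 (log2 size 0.11 to 0.38 for genes with 1 read). The design had assumed plain group means. The tables' fold changes, p-values and q-values were not used.

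Log2 ratios took a pseudocount of 1 over 17215 to 17876 genes per table, of which 13118 to 13593 had a higher value of at least 10. NCBI gene numbers were matched to symbols with RefSeq (99.8% to 99.9% matched), and 1475 to 1571 rows per table had none. The ratio step was tested on simulated data. Named genes were the 10 members, the 3 genes most like each of the 3 members of widest range, and up to 4 genes of largest ratio per list and comparison, with others named where a count called for it. The result of 1 listed gene is not reported here. The members and lists were chosen with earlier results of these data known. Python 3.11.15, numpy 2.4.6, pandas 2.3.3 and matplotlib 3.10.9 were used. Alternatives were other pseudocounts, filters, limits and scalings.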

Additional observations from a re-analysis of the deposited data

How the results depend on the processing

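No paired analysis was possible because the tables hold no values per sample, and leaving out a replicate was not possible for the same reason. No member value changed direction past 2-fold under any alternative. The limit moved the counts most. At 1.5-fold, 27 values were higher and 16 lower than wildtype (8 and 3 at 2-fold), 30 were lower on the later day (14 at 2-fold), and 31.9% of all genes over the 27 comparisons were apart (16.7% at 2-fold). At 3-fold, 5 values were higher and 0 lower than wildtype, 20 were higher (31 at 2-fold) and 6 lower on the later day, and 8.14% of all genes were apart. A filter of 50 normalized counts left 5 values higher than wildtype. Scaling columns to their sums moved the median of all genes by over 0.1 in 9 of the 27 comparisons, from -0.27 to 0.25. It took 9 member values past 2-fold and 1 short of it among 270, and turned the sign of 9, all within 0.17 of 0. A pseudocount of 5 took 2 values short of 2-fold. A pseudocount of 0.5 and centring on the median of the genes left all 270 on their side of 2-fold. Without values per sample, the spread between cultures is unknown, and folds of low genes may be understated.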
